A study of Homo sapiens with 7 samples.

Results

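The genes described here are the cyclins, cyclin-dependent kinases, kinase inhibitors and pocket protein of the G1 phase in H1 human embryonic stem cells given XMD892, a small-molecule inhibitor used against the kinase ERK5 (gene MAPK7). They were taken by name: CCND1, CCND2, CCND3, CDK2, CDK4, CDK6, CDKN1B, CDKN1C, CDKN2C and RB1. Of these 10 genes, 9 had a row among the 19775 genes of the expression table, and CDKN2C was not analysed here. H1 is an established line of pluripotent cells from a human blastocyst, grown in E8, a defined medium whose growth factors are insulin, FGF2 and TGFβ. All libraries came from wild-type H1 cells in E8 medium with antibiotics. The groups were E8 alone, labelled 48 h (n = 2), and E8 with 1 µM XMD892 for 12 h (a single library), 24 h (n = 2) or 48 h (n = 2). E8 alone was sampled under the 48 h label only, so a change with time in culture and a change with XMD892 cannot be told apart at 12 h and 24 h. The treatment labels name no vehicle for the E8 libraries, so by these labels XMD892 and its vehicle cannot be told apart at any time. No label names separate cultures, so the p-values rest on the spread between these libraries, which may be technical. The test used, limma, took each gene's variance mostly from a trend over all genes (weight 18.4, against 3 from that gene's libraries). A gene's p-value is therefore not a measure of that gene's own replicate spread alone.

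Passage through G1 is driven by D-type cyclins, which bind and activate CDK4 and CDK6. These kinases phosphorylate the retinoblastoma protein RB1 and so free E2F factors to switch on genes of DNA replication, a step that CDK2 with cyclin E completes. Inhibitors of the CIP/KIP family (CDKN1A, CDKN1B, CDKN1C) bind whole cyclin-kinase complexes, and those of the INK4 family (CDKN2A to CDKN2D) bind CDK4 and CDK6. Pluripotent cells are known for a short G1 phase.

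Values are normalised read counts, that is, reads per gene divided by 1 factor per library. The libraries held 18528689 to 24148186 reads in the listed genes. All 12 markers of human pluripotent stem cells were present, at a mean of 100 or more each, and their sum lay between 199362 and 217491 in the 48 h libraries, against 209492 to 235860 in the E8 libraries. That sum is made up mostly of POU5F1, LIN28A and DNMT3B and does not show every marker: NANOG had 2552 and 3046 at 48 h, against 6631 and 5818 in E8, LIN28B 2051 and 2257, against 4723 and 3659, and TDGF1 6214 and 6619, against 11878 and 10254. Marker lists of other lineages were low beside these, and some differed between XMD892 and E8 libraries. The 4 trophoblast or amnion markers with a row summed to 277 to 349 in E8, 124.5 after 12 h of XMD892, 81.2 to 92.6 after 24 h and 112 to 147 after 48 h. The 4 mesoderm markers with a row summed to 312 to 314 in E8, 65.5 after 12 h, 123 to 126 after 24 h and 109 to 115.5 after 48 h, and MIXL1 alone, at 264 and 247 in E8 and 33.3 to 69.2 with XMD892, carried that difference. The 3 neural markers with a row summed to 168 to 195 in E8, 194 after 12 h, 183 to 208 after 24 h and 316 to 346 after 48 h. The fibroblast collagens COL1A1 and COL1A2 summed to 1869 to 2267 in E8, 2867 after 12 h, 2509 to 2513 after 24 h and 2115 to 2385 after 48 h. At 48 h COL1A1 lay below its E8 libraries (361 and 324, against 481 and 589) and COL1A2 above them (2025 and 1791, against 1388 and 1678). Endoderm was represented by GATA4 alone, at 1.1 to 2.0 in the 48 h libraries and 12.4 to 14.0 in E8, and the part of these markers in the results was not tested. The E8 replicates differed from each other along transcript GC content (Spearman rho across 15991 genes -0.64, genes not being independent replicates), which bears on CDK6, CDK4 and CDKN1C below. As these are bulk RNA libraries, fewer cells of a type or cycle phase and less RNA per cell cannot be told apart.

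At 48 h, XMD892 cells had more CDK4 and CDKN1C RNA and less CDK6 RNA than E8 cells, and the other 6 genes did not pass the test. These calls are 3 of 9 genes (2 higher, 1 lower), where 11.5% of all 16351 tested genes were called at 48 h (5.08% higher, 6.45% lower). The same 3 genes were called at 24 h, in the same directions, where 16.2% of all tested genes were called (8.66% higher, 7.56% lower). At 12 h the call was CDKN1B alone, which fell, where 7.46% of all tested genes were called (4.89% lower). The median log2 fold change of the 9 genes at 48 h was 0.02, and that of all tested genes was also 0.02. At 24 h the medians were 0.11 for the 9 genes and 0.01 for all tested genes, and at 12 h 0.09 and 0.02. The 3 comparisons share the E8 libraries, so the repeat of a call between times is not independent.

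**Figure D1:**
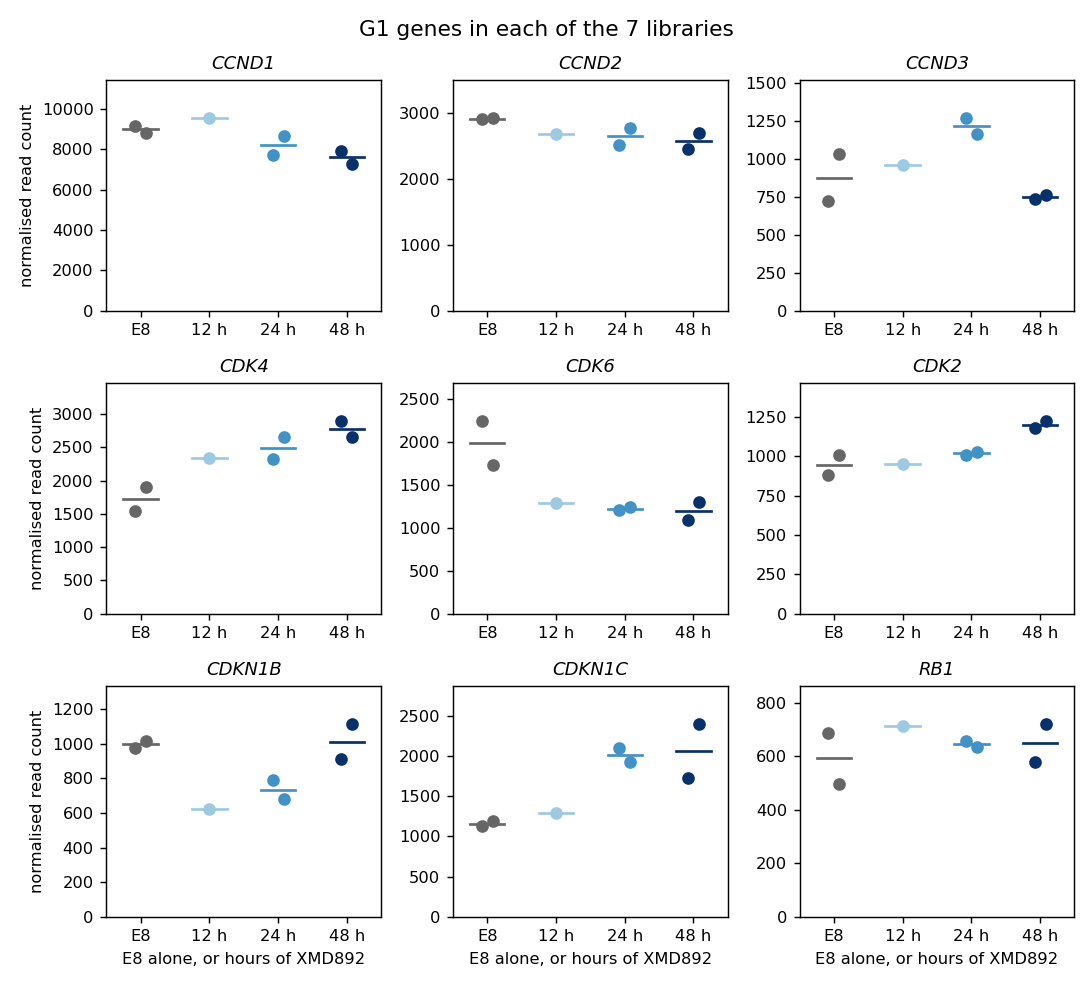
Normalised read counts (vertical axis, from 0, own scale per panel) of the 9 G1 genes, 1 point per library with a line at each group's mean, in E8 alone and after 12, 24 and 48 h of XMD892. CDK4 and CDKN1C lie higher and CDK6 lies lower in the 24 h and 48 h libraries than in both E8 libraries.

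The D-type cyclins are the growth-factor-responsive partners of CDK4 and CDK6. CCND1 (cyclin D1, chromosome 11, 69641087 to 69654474, plus strand; coordinates here are of GENCODE 29 on GRCh38) stood at 9164 and 8789.9 in E8, 9535 after 12 h of XMD892, 7689 and 8676 after 24 h and 7923 and 7278 after 48 h. Both 48 h libraries and both 24 h libraries lay below both E8 libraries, and the 12 h library lay above them. The mean was 7600 ± 456 at 48 h and 8977 ± 264 in E8 (SD, n = 2 each), a log2 fold change of -0.24 ± 0.14 (SE) that did not pass limma's test (adjusted p = 0.281). Its 95% interval ran from -0.53 to 0.05.

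CCND2 (cyclin D2, chromosome 12, 4273772 to 4305350, plus strand) had 2905 and 2919 normalised read counts in E8, 2678 after 12 h of XMD892, 2520.1 and 2777 after 24 h and 2456 and 2689.7 after 48 h. Every XMD892 library lay below both E8 libraries, by a small margin. The log2 fold change was -0.18 ± 0.14 at 48 h and -0.14 at 24 h, neither past the threshold (limma, adjusted p = 0.445 and 0.548). Separation of the libraries alone is common here: the groups did not overlap for 52.3% of all tested genes at 48 h. That share is not given for 12 h and 24 h, so separation at those times is a description only. A single library, as at 12 h, separates from E8 more easily than replicate libraries do.

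CCND3 (cyclin D3, chromosome 6, 41934933 to 42050357, minus strand) was the D cyclin that moved within the XMD892 series. It had 721 and 1030.4 normalised read counts in E8, 961 after 12 h of XMD892, 1269 and 1166 after 24 h and 738 and 761 after 48 h. Both 24 h libraries were above every other library, and the 48 h libraries lay within the E8 range. CCND3 was 1.62-fold lower at 48 h than at 24 h (749 ± 16.4 and 1218 ± 72.9, SD, n = 2 each; log2 fold change -0.70 ± 0.17 SE, limma, adjusted p = 0.0457). It was the 1 gene of the 9 called between these times, where 1.2% of all tested genes were called (0.856% lower). The call was lost without any one of the 24 h or 48 h libraries (log2 -0.64, -0.76, -0.68 and -0.72; adjusted p between 0.0787 and 0.418). Against E8, CCND3 was 1.41-fold higher at 24 h, with an adjusted p that rounds to 0.05 and lies just above the threshold (0.05001), and its E8 libraries stood apart from each other by 0.51 on the log2 scale. Without E8 replicate 2, the higher E8 library, that difference was 0.75, and without E8 replicate 1 it was 0.24. Without E8 replicate 1, CCND3 was called lower at 48 h (log2 -0.46, adjusted p = 0.0413), and without E8 replicate 2 the 48 h difference was 0.06.

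Per kilobase of exon, CCND1 was the leading D cyclin in every library. It had 2080 and 1995 normalised read counts per kb in E8, 2165 after 12 h of XMD892, 1746 and 1970 after 24 h and 1799 and 1652 after 48 h. CCND2 lay between 379 and 451 and CCND3 between 183 and 322 counts per kb over the 7 libraries, so the 3 genes' ranges did not overlap. CCND1 made up 71.1 to 76.7% of the summed D cyclin level per kb. The CCND3 share was 6.75% and 9.66% in E8, 8.64% after 12 h of XMD892, 13.1% and 10.98% after 24 h and 7.91% and 8.54% after 48 h. Below CCND1, the ranges over the 7 libraries of CDK4 (745 to 1392) and CDKN1C (578 to 1230.1) overlapped, as did those of CDK2 (362 to 500.4), CCND2 and CDKN1B (235.5 to 419) and, lowest, those of CDK6 (93.4 to 191) and RB1 (99.1 to 143).

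**Figure D2:**
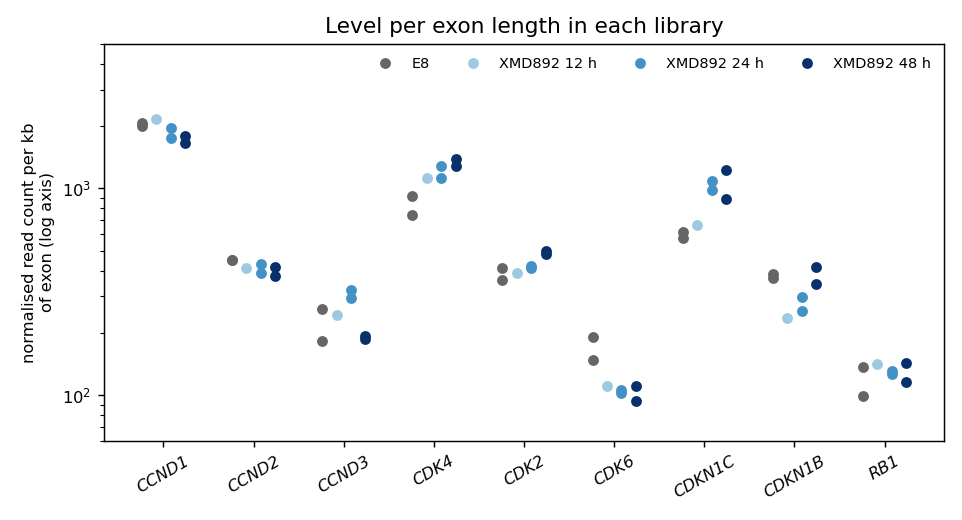
Normalised read counts per kilobase of exon (vertical log axis) of the 9 G1 genes along the horizontal axis, 1 point per library, coloured by E8 alone or time in XMD892. CCND1 is the highest of the 9 genes in every library, and CDK4 lies above CDK2 and CDK6 in every library.

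Of the kinases, CDK4 rose and CDK6 fell at 24 h and 48 h, and CDK2 did not pass the test. CDK4 (chromosome 12, 57747727 to 57756013, minus strand), the catalytic partner of D cyclins, had 1547 and 1900.4 normalised read counts in E8, 2337 after 12 h of XMD892, 2320.2 and 2658 after 24 h and 2891 and 2659.9 after 48 h. Every XMD892 library lay above both E8 libraries. CDK4 rose at 48 h to 2775 ± 163, against 1724 ± 250 in E8 (SD, n = 2 each), a 1.62-fold difference (log2 0.69 ± 0.15 SE, limma, adjusted p = 0.00426). At 24 h it was 1.45-fold higher than in E8 (log2 0.53 ± 0.15, adjusted p = 0.0195), and at 12 h the difference of 0.45 did not pass (limma, adjusted p = 0.148). Without E8 replicate 2 the 12 h difference was 0.60 and without E8 replicate 1 it was 0.30, each with 1 library in either arm. The 48 h call was lost without 48 h replicate 1 (log2 0.63, adjusted p = 0.0788), and the 24 h call without E8 replicate 1 (0.39, adjusted p = 0.0636), 24 h replicate 1 (0.63, 0.06) or 24 h replicate 2 (0.44, 0.217).

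CDK4 shares 1369 exon bases with TSPAN31, a gene on the opposite strand, and the strand setting of the counting is not given, so reads from the shared bases cannot be assigned to one of the genes. TSPAN31, which encodes a tetraspanin, had 323 and 309 normalised read counts at 48 h, against 209.5 and 208 in E8 (log2 0.60 ± 0.18 SE, limma, adjusted p = 0.0359), a call lost without 48 h replicate 1 (adjusted p = 0.214) or 48 h replicate 2 (0.145), or either 24 h library (0.052 and 0.0516). How many shared reads were counted to CDK4 was not tested.

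CDK6 (chromosome 7, 92604921 to 92836594, minus strand), the other D cyclin kinase, had 2240.3 and 1733 normalised read counts in E8, 1295 after 12 h of XMD892, 1205 and 1241 after 24 h and 1096 and 1300.2 after 48 h. All 5 XMD892 libraries lay below both E8 libraries. CDK6 fell at 48 h to 1198 ± 144, against 1987 ± 359 in E8 (SD, n = 2 each), 1.65-fold lower (log2 -0.72 ± 0.16 SE, limma, adjusted p = 0.0048). It was 1.61-fold lower at 24 h (log2 -0.69 ± 0.16, adjusted p = 0.00581), and at 12 h the difference of -0.61 did not pass (limma, adjusted p = 0.0608). Leaving out 48 h replicate 1 ended the 48 h call (log2 -0.60, adjusted p = 0.11), and leaving out 24 h replicate 1 ended the 24 h call (-0.67, adjusted p = 0.0513). Without E8 replicate 2 the 12 h difference was -0.79, and without E8 replicate 1 it was -0.42, again with 1 library in either arm.

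The transcripts of CDK6 and CDK4 differ in GC content, 39.5% and 53.6%, and the E8 replicates differed in opposite directions for them, by 0.37 and -0.30 on the log2 scale (replicate 1 over replicate 2). With each library's GC trend removed, CDK4 remained called at 48 h (log2 0.63, limma, adjusted p = 0.00116) and so did CDK6 (-0.63, adjusted p = 0.000948). The 12 h difference of CDK6 was -0.57 and called in that fit (adjusted p = 0.00776).

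Within each library, the ratio of CDK4 to CDK6 normalised read counts was 0.69 and 1.10 in E8, 1.80 after 12 h of XMD892, 1.93 and 2.14 after 24 h and 2.64 and 2.05 after 48 h. E8 replicate 1 had fewer CDK4 than CDK6 reads and E8 replicate 2 slightly more, and every XMD892 library had more. That the ratio was higher in every XMD892 library follows from the values of both genes above and is no separate result. Corrected for exon length (basic transcripts), the ratio was 3.90 and 6.20 in E8 and lay between 10.2 and 14.9 over the 5 XMD892 libraries. The size of this corrected ratio depends on the set of transcripts used.

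CDK2 (chromosome 12, 55966769 to 55972784, plus strand), the kinase of cyclin E and cyclin A, had 883 and 1006 normalised read counts in E8, 951 after 12 h of XMD892, 1007 and 1028 after 24 h and 1176 and 1221 after 48 h. Both 48 h libraries were the highest of the 7. The mean of 1198 ± 31.8 at 48 h, against 944 ± 86.9 in E8 (SD, n = 2 each), gave a log2 fold change of 0.35 ± 0.15 (SE) that did not pass limma's test (adjusted p = 0.144). Without E8 replicate 2 the log2 fold change was 0.44, and without E8 replicate 1 it was 0.25. CDK2 shares 89 exon bases with PMEL on the opposite strand and 565 with AC025162.1, CDK6 shares 81 with AC002454.1 and CCND1 497 with LTO1, all on opposite strands, so the same uncertainty applies to their counts. CCND2 shares 989 exon bases with AC008012.1 on the same strand, where reads cannot be assigned by strand.

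**Figure D3:**
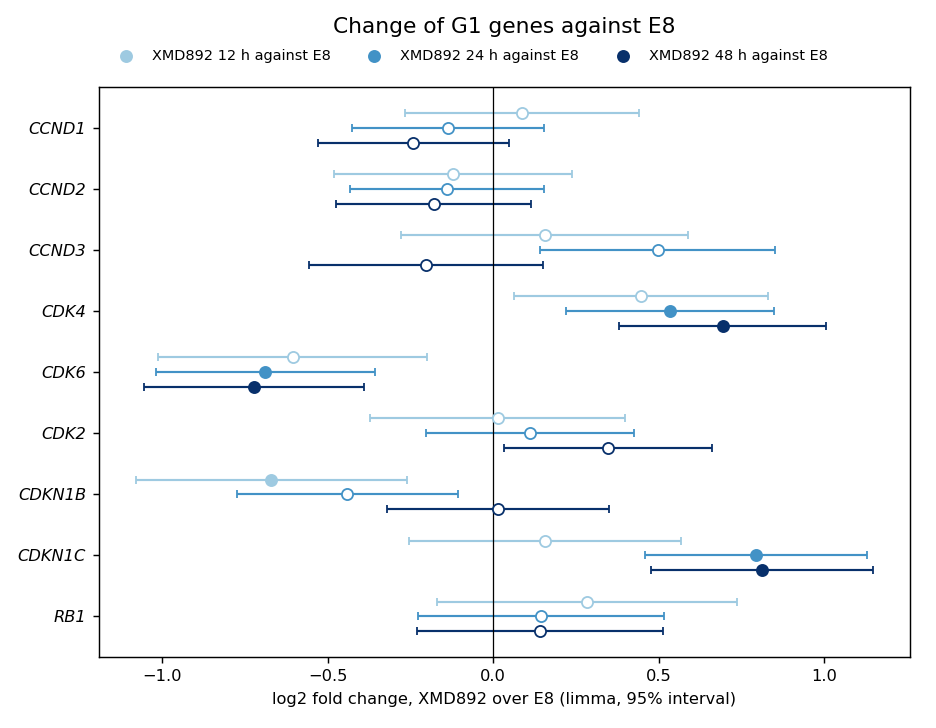
Log2 fold change of each of the 9 G1 genes over E8 (horizontal axis) after 12, 24 and 48 h of XMD892, with 95% intervals from limma; filled points passed an adjusted p of 0.05. CDK4 and CDKN1C pass to the right of 0 and CDK6 to the left at 24 h and 48 h, and CDKN1B passes to the left at 12 h.

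The promoters of CDK4, CDK6 and CDKN1B are shown because these genes were called against E8 at some time; of the 4 genes called against E8, these 3 had an entry, from RefSeq on GRCh38.p14. Each window runs 5′ to 3′ on the gene's strand, with 250 bases before and 50 after the annotated start: chr12:57752261-57752560 (minus strand) for CDK4, chr7:92836524-92836823 (minus strand) for CDK6 and chr12:12717118-12717417 (plus strand) for CDKN1B. The starts lie inside the gene spans given by GENCODE, and for CDK6, which has 2 entries, the one farther upstream is shown. Capitals mark E-boxes (CACGTG, the sequence bound by MYC and related factors) and GC boxes (GGGCGG, read as CCGCCC on the other strand).
CDK4: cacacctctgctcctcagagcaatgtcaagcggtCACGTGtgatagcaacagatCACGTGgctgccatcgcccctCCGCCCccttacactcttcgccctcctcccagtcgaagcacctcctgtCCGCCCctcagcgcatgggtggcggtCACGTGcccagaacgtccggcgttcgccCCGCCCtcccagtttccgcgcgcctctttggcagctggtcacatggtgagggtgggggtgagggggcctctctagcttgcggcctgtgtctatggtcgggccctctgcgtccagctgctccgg
CDK6: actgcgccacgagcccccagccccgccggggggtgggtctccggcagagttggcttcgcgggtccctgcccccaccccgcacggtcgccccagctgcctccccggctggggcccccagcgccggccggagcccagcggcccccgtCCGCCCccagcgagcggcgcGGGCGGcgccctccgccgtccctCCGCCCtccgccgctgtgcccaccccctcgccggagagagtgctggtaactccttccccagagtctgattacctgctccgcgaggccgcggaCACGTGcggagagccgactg
CDKN1B: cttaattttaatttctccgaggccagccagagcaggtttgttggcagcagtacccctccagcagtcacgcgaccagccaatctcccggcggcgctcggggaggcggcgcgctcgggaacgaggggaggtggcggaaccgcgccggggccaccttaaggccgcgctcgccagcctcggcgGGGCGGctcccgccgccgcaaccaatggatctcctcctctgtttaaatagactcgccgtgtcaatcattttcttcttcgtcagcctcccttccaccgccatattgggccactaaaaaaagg
The CDK4 window held 3 E-boxes, beginning at positions -216, -196 and -101 from the start, and 3 GC boxes. The CDK6 window held 3 GC boxes and 1 E-box at position 31 after the start, and the CDKN1B window held 1 GC box at position -71. No matches overlapped. Over 35116 promoter windows of this length, searched on both strands, 7.26% held CACGTG and 45.0% held GGGCGG. An E2F motif, TTTNNCGC, was held by 6.89% of the windows and a FOXO motif, GTAAACA, by 3.42%, and none of these 3 windows held either. A match describes the letters in the window and does not show that a factor binds there.

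Of the CIP/KIP inhibitors, CDKN1C rose at 24 h and 48 h and CDKN1B fell at 12 h. CDKN1C (p57, chromosome 11, 2883213 to 2885773, minus strand), an inhibitor of G1 cyclin-kinase complexes encoded by an imprinted gene, had 1123 and 1194 normalised read counts in E8, 1290.3 after 12 h of XMD892, 2102 and 1919 after 24 h and 1729 and 2390.2 after 48 h. Every 24 h and 48 h library lay well above both E8 libraries, and the 12 h library lay just above them. At 48 h the gene averaged 2060 ± 468, against 1158 ± 50.3 in E8 (SD, n = 2 each), 1.75-fold higher (log2 0.81 ± 0.16 SE, limma, adjusted p = 0.00206). At 24 h it was 1.73-fold higher (log2 0.79 ± 0.16, adjusted p = 0.00224), and at 12 h the difference was 0.16 (limma, adjusted p = 0.698). Between 48 h and 24 h the difference was 0.02, with a 95% interval of -0.32 to 0.35. Without 48 h replicate 2, the higher 48 h library, the 48 h call was lost (log2 0.58, adjusted p = 0.096).

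CDKN1C has the highest transcript GC content of the 9 genes, 63.8%. With each library's GC trend removed, it was higher by 0.73 at 48 h (limma, adjusted p = 0.00358) and by 0.54 at 24 h (adjusted p = 0.0165). With the trend removed and E8 replicate 2 left out, the 24 h difference was 0.39 and did not pass (adjusted p = 0.0665).

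CDKN1B (p27, chromosome 12, 12715058 to 12722371, plus strand), which restrains CDK2 complexes and also assembles with cyclin D and CDK4, had 974 and 1019.6 normalised read counts in E8, 626 after 12 h of XMD892, 791 and 681 after 24 h and 911 and 1113 after 48 h. The 12 h library and both 24 h libraries lay below every other library, and the 48 h libraries lay on either side of the E8 libraries. The 12 h library was 1.59-fold lower than E8 (log2 -0.67 ± 0.20 SE, limma, adjusted p = 0.0404), with the single library assumed to vary like the other groups. That call was lost without either 24 h library (adjusted p = 0.0527 each), without 48 h replicate 1 (0.0609) or replicate 2 (0.0598), and when only the compared groups were fitted (0.237), although none of these changes touches the 12 h or E8 values. At 24 h the mean was 736 ± 78.2, against 997 ± 32.0 in E8 (SD, n = 2 each; log2 -0.44 ± 0.16 SE, limma, adjusted p = 0.0653). At 48 h the difference from E8 was 0.02 (95% interval -0.32 to 0.35), and from 24 h it was 0.46 (limma, adjusted p = 0.208). The difference from 24 h passed when only the 24 h and 48 h libraries were fitted (limma, adjusted p = 0.0262). Calls among all genes were then 1043, against 197 with all libraries fitted.

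The ratio of CDKN1C to CDKN1B normalised read counts within a library was 1.15 and 1.17 in E8, 2.06 after 12 h of XMD892, 2.65 and 2.82 after 24 h and 1.90 and 2.15 after 48 h. Every XMD892 library had a higher ratio than both E8 libraries. Between 24 h and 12 h, none of the 9 genes was called by limma, edgeR or DESeq2 fitted to all libraries (0.391% of all tested genes were called by limma). CDKN1C alone was under an unadjusted p of 0.05. Its log2 difference between those times was 0.64, and 0.35 with the GC trend removed (limma, adjusted p = 0.402), with a single library at 12 h.

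**Figure D4:**
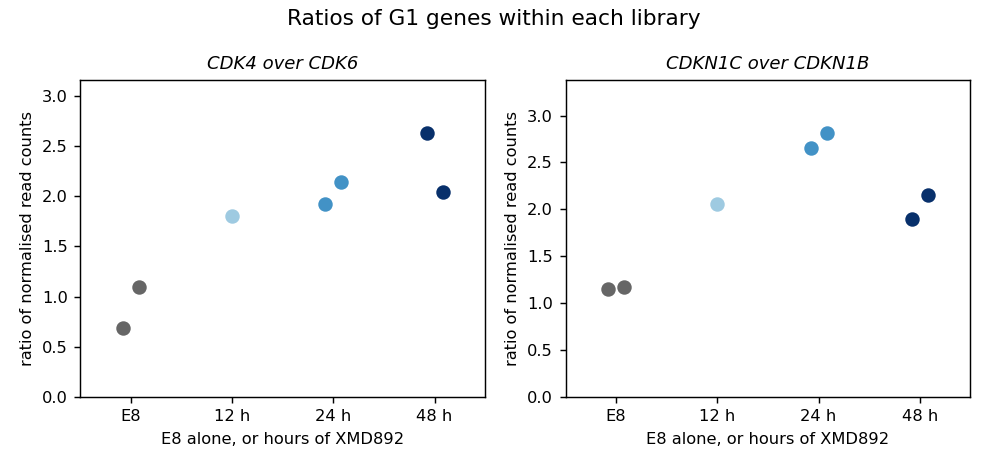
Ratio of normalised read counts (vertical axes, from 0) of CDK4 over CDK6 and of CDKN1C over CDKN1B, 1 point per library, in E8 alone and after 12, 24 and 48 h of XMD892. Both ratios are higher in all 5 XMD892 libraries than in both E8 libraries, which for CDK4 over CDK6 follows from the values of both genes.

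RB1 (chromosome 13, 48303726 to 48599436, plus strand), the pocket protein that the G1 kinases phosphorylate, had 688 and 497 normalised read counts in E8, 712 after 12 h of XMD892, 657 and 635 after 24 h and 578 and 719 after 48 h. The groups overlapped at 24 h and at 48 h, and the E8 libraries spanned most of the range. The log2 fold change at 48 h was 0.14 ± 0.18 (SE, limma, adjusted p = 0.665), with a 95% interval of -0.23 to 0.51. RB1 has the lowest transcript GC content of the 9 genes, 37.3%, and its E8 replicates differed by 0.47 on the log2 scale.

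Most genes of the wider G1 to S machinery did not pass the test at 48 h, which also holds for most of all tested genes. With so few libraries per group, not passing does not show that a gene was unchanged. Of 12 other tested G1/S cyclins, kinases, inhibitors and pocket proteins, 1 rose, 1 fell and 10 did not pass (median log2 fold change 0.03), where 11.5% of all tested genes were called. The lists below are to be read against the same share at 48 h, and against 16.2% at 24 h. CDKN1A (p21), the CIP/KIP inhibitor induced by p53, had 58.3 and 63.5 normalised read counts at 48 h, against 151 and 189 in E8, and was 2.75-fold lower (log2 -1.46 ± 0.22 SE, limma, adjusted p = 0.00013). Thus CDKN1A fell where CDKN1C rose at 48 h, but not at 24 h. CDKN1A had 150 and 174 at 24 h (log2 -0.07 from E8, limma, adjusted p = 0.875) and 267.3 in the 12 h library. It was lower at 48 h than at 24 h (log2 -1.39, limma, adjusted p = 0.00117). CDKN2D, an INK4 inhibitor, was the gene that rose, at 67 and 94.2 against 29.7 and 55.4 in E8 (log2 0.95 ± 0.31, limma, adjusted p = 0.0474), a call lost without E8 replicate 1 (0.51, adjusted p = 0.361), 48 h replicate 1 (adjusted p = 0.0726) or 48 h replicate 2 (0.71, 0.312), and with edgeR (0.058) and DESeq2 (0.13).

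Among 10 E2F and DP factors, 0 rose, 2 fell and 8 did not pass at 48 h (median -0.02). The genes that fell were E2F2, an activator E2F, at 180.3 and 133 against 277 and 305 in E8 (log2 -0.90, limma, adjusted p = 0.00573), and E2F8, a repressor E2F, at 286 and 236 against 534 and 440.4 in E8 (log2 -0.90, adjusted p = 0.00574). Of 20 E2F target genes of DNA replication, 2 rose, 0 fell and 18 did not pass at 48 h (median 0.09), where 5.08% of all tested genes were called higher. The genes that rose were TYMS, thymidylate synthase, at 1151 and 1365 against 739 and 821 in E8 (log2 0.69, adjusted p = 0.00595), and TK1, thymidine kinase, at 2262 and 2184 against 1251 and 1623 in E8 (log2 0.64, adjusted p = 0.00858). All 4 of these calls were lost without 48 h replicate 2 (log2 -0.69 for E2F2, -0.76 for E2F8, 0.56 for TYMS and 0.67 for TK1; adjusted p between 0.0627 and 0.124), and that of TK1 also without 48 h replicate 1 (0.62, adjusted p = 0.0969).

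Of 12 mitosis genes, 0 were called at 48 h by limma, edgeR or DESeq2, and 0 had an unadjusted p under 0.05 (median -0.09). At 24 h, 2 of the 12 fell (median -0.30), where 7.56% of all tested genes were called lower: MKI67, a marker of cycling cells, with log2 -0.62 (limma, adjusted p = 0.014), and TOP2A, a topoisomerase of dividing cells, with -0.48 (adjusted p = 0.0252). Both were named after their values were seen. At 24 h too, 4 of the 20 E2F target genes rose and 0 fell (median 0.12), where 8.66% of all tested genes were called higher. Without 24 h replicate 1, MKI67 was at -0.35 (adjusted p = 0.386) and TOP2A at -0.46 (0.19), and the TOP2A call was also lost without E8 replicate 1 (-0.33, 0.103) or 24 h replicate 2 (-0.50, 0.115). Of 13 ubiquitin ligase parts that act on G1 cyclins or inhibitors, CKS1B, which helps the SKP2 ligase recognise CDKN1B, rose at 48 h, at 3944 and 3753 against 2558 and 3054 in E8 (log2 0.46, limma, adjusted p = 0.0399), and 12 did not pass. That call was lost without E8 replicate 1 (0.33), either 24 h library (0.46 each) or 48 h replicates 1 (0.42) and 2 (0.50), with adjusted p between 0.0704 and 0.251, with the replicate block (adjusted p = 0.0616) and with only the compared groups fitted (0.0685). Of 9 upstream regulators, FOXO4, a transcription factor known to act on CDKN1B, fell at 48 h, at 674 and 515 against 1004.9 and 1459 in E8 (log2 -1.04, limma, adjusted p = 0.000755), and 8 did not pass.

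At 24 h, 3 of the upstream regulators rose and 1 fell, where 16.2% of all tested genes were called (8.66% higher, 7.56% lower). Those that rose included MYC and MYCN, transcription factors that act on E-boxes, which were named after their values were seen. MYC had 3464 and 2944 normalised read counts at 24 h, against 2201 and 2230.1 in E8 (log2 0.53, limma, adjusted p = 0.0158), and 2152 and 2087 at 48 h. MYCN had 3610.4 and 3374 at 24 h, against 1849 and 2209.5 in E8 (log2 0.79, adjusted p = 0.00119), and 2229.9 and 2549 at 48 h. Without 24 h replicate 1 the MYC difference from E8 was 0.41 and did not pass (adjusted p = 0.3). MYC was lower at 48 h than at 24 h (log2 -0.59, limma, adjusted p = 0.0457), a call lost without any one of the 24 h or 48 h libraries (-0.47 to -0.71, adjusted p between 0.0858 and 0.633), with TMM scaling (-0.58, adjusted p = 0.0553) and with quantile normalization (-0.56, adjusted p = 0.0564). CDK4 did not pass between 48 h and 24 h (log2 0.16, limma, adjusted p = 0.728). A link between MYC or MYCN and the G1 genes was not tested.

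**Figure D5:**
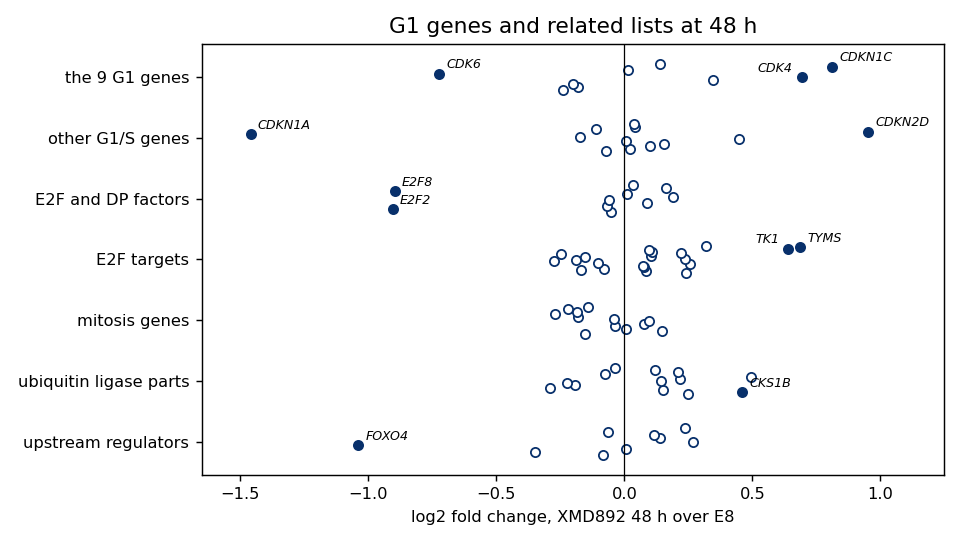
Log2 fold change at 48 h of XMD892 over E8 (horizontal axis) of each tested gene, in rows for the 9 G1 genes and the 6 related lists; filled, named points passed limma at an adjusted p of 0.05, open points did not. Most points lie near 0 in every row, and CDKN1A is the point farthest to the left.

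For each gene called against E8, the 3 genes with the most similar pattern were found by Pearson r of the log2 values over the 7 libraries, as a description; the points are the same 7 libraries, including the E8 replicates that differ along GC content. For CDK4 they were PHB (r = 0.992), ZNF76 (0.991) and PYGO2 (0.989). For CDK6 they were GNG12 (0.995), INTS6L (0.995) and HIVEP1 (0.994). For CDKN1B they were MUT (0.990), ZNF514 (0.985) and FBXO34 (0.959), and for CDKN1C CTNNBIP1 (0.973), HS3ST5 (0.973) and BRI3BP (0.971). ZNF76 had 884 and 833 normalised read counts at 48 h, against 384 and 521 in E8, and GNG12 had 849.8 and 971 against 1737 and 1349. The size of a change does not enter r. MUT had 460.5 in the 12 h library and 553 in 48 h replicate 2, where CDKN1B had 626 and 1113. The genes named for each member are the highest of 11365 compared over 7 libraries, so a high r is partly a result of that choice.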

How the data were processed

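Poly(A) RNA of 7 H1 libraries was sequenced as paired ends on an Illumina NextSeq 500, per the labels' protocols. The submitters' processing notes name Trimmomatic 0.36, STAR, featureCounts 1.5.3, DESeq2 1.26.0 and hg38, with no roles; the annotation, strand setting and filters are not given in the sources used here. Each deposited value is a signal for a gene symbol, judged from the values to be a read count over a library-wide factor set by the authors. Divided by its library's smallest step, 100% of the values lay within 0.1 of a whole number, and these whole reads were recovered. Another 2 columns match no sample and were not used.

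Values were taken to log2 with a pseudocount of 1, so fold changes of low genes are understated. Genes with a mean of 10 or more were fitted in all 7 libraries by limma 3.58.1 (R 4.3.3; 1 mean per group, trended prior variance, 3 residual degrees of freedom, prior 18.4), with a call threshold of 0.05 on p-values adjusted by Benjamini-Hochberg across the 16351 genes. Every adjusted p printed is from limma unless edgeR or DESeq2 is named. edgeR 4.0.16 and DESeq2 1.42.0 on the recovered reads were alternatives, and called 1921 and 1565 genes at 48 h against E8, against 1884 by limma. A limma fit of the same form was tried on simulated counts with known fold changes, for 48 h against E8 only. Those counts held no GC difference between replicates, and the GC removal, leave-outs, edgeR and DESeq2 steps were not tried on them. Per kb levels use the merged exons of the basic transcripts of GENCODE 29, and exon bases shared between genes were taken over all its transcripts. GENCODE 29 matched 97.5% of symbols.

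The members and lists were chosen with earlier results of these data known. All members are named; of each related list, up to 4 genes with the smallest p at 48 h among those called with libraries that do not overlap; and for each member called against E8, the 3 genes of mean 100 or more with the highest r.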

Additional observations from a re-analysis of the deposited data

Results flagged for a closer look

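CCND3 stood out because its difference from E8 was not the same at 24 h and 48 h. Its log2 fold change over E8 was -0.20 at 48 h and 0.50 at 24 h, and the difference between them, which equals the direct comparison of 48 h with 24 h, was -0.70 (limma, adjusted p = 0.0457). Both 48 h libraries, at 738 and 761 normalised read counts, lay below both 24 h libraries, at 1269 and 1166. The E8 libraries are common to both differences and cancel in this value, and no group held enough libraries for a search for single outlying ones.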

How the results depend on the processing

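Of 990 values (45 pairs of a gene and a comparison, 22 alternatives), 909 kept their direction and their side of the threshold, 19 lost a call, 26 gained one and 36 turned, none of them called. Apart from leave-outs, values that turned were RB1 between 48 h and 24 h with TMM (0.007), quantile normalization (0.008), edgeR and DESeq2 (0.006 each), CDKN1B at 48 h with equal totals (-0.003) and quantile normalization (-0.026), and CDK2 at 12 h with quantile normalization (-0.043) and with the GC trend removed (-0.033). Between 24 h and 12 h with the GC trend removed they were CCND2 (0.061) and CDK6 (0.036, and 0.016 with the replicate block). The cause of these changes was not tested.

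With only the compared groups fitted, calls among all genes were 804 at 12 h against E8, 1043 between 48 h and 24 h and 1457 between 24 h and 12 h. Among the 9 genes they were then 0, 2 and 1 (CDKN1C). With the GC trend removed, calls among all genes were 3068 at 48 h against E8, 3273 at 24 h, 2398 at 12 h and 363 between 48 h and 24 h. Of the 9 genes, 5 were then called at 24 h (CCND3 and CDKN1B added) and 2 at 12 h. DESeq2 gave 119 calls between 24 h and 12 h. TMM scaling left 0 of the 9 genes called between 48 h and 24 h (CCND3 at -0.69, adjusted p = 0.0588), where 160 of all genes were called. The replicate differences gave no sign of pairing by replicate number (correlations between groups -0.04, -0.05 and -0.07). They do not show that the libraries were unpaired, as the E8 replicates also differed along GC content. With the replicate block, calls among all genes were 1231 at 12 h and 1955 at 48 h against E8. The 12 h calls held 0 of the 9 genes (CDKN1B -0.65, limma, adjusted p = 0.0836). With the block and the GC trend removed, calls among all genes were 1745 at 12 h (2 of the 9) and 24 between 24 h and 12 h.

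The alternatives with the GC trend removed and an E8 library left out were chosen after seeing the data. Without E8 replicate 1 they gave 1871 calls among all genes at 12 h (2 of the 9), 751 between 48 h and 24 h and 297 between 24 h and 12 h, with CDKN1B at 48 h at -0.053, and CCND3 and CDK2 at 12 h at -0.053 and -0.095. Without E8 replicate 2 they gave 3250 at 48 h, 2636 at 12 h (3 of the 9), 758 between 48 h and 24 h and 286 between 24 h and 12 h, with CCND2 at 24 h at 0.012.

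Leaving out 1 library at a time gave 791 to 4057 calls among all genes at 48 h against E8, 1105 to 4917 at 24 h, 1021 to 2941 at 12 h, 64 to 1045 between 48 h and 24 h and 31 to 734 between 24 h and 12 h. Of the 9 genes, 1 to 4, 1 to 5, 0 to 3, 0 to 2 and 0 to 1 were called in these comparisons. At 48 h CCND3 ranged over -0.46 to 0.055, CDKN1B over -0.129 to 0.159 and RB1 over -0.094 to 0.376. At 24 h RB1 ranged over -0.091 to 0.379 and CDKN1A over -0.227 to 0.096. At 12 h CCND3 ranged over -0.101 to 0.413 and CDK2 over -0.08 to 0.108. Between 48 h and 24 h CCND2 ranged over -0.112 to 0.028, CDK6 over -0.158 to 0.088, CDKN1C over -0.216 to 0.251 and RB1 over -0.161 to 0.154. Between 24 h and 12 h CCND2 ranged over -0.088 to 0.052 and CDK4 over -0.01 to 0.186. A group left with 1 library is assumed to vary like the others. The 9 genes had 535 to 10638 reads per library, so counting error alone (4.32% of the lowest value) limits them less than the number of libraries.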
